A study of Mus musculus with 6 samples.

Results

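Vascular smooth muscle makes its own versions of many contractile and adhesion proteins by alternative splicing, and a small set of RNA-binding proteins chooses which exons are kept. The 9 genes described here encode such regulators: Rbpms and Rbpms2, Mbnl1 and Mbnl2, Ptbp1 and Ptbp2, Celf1 and Celf2, and Rbfox2. They were picked by symbol as known regulators of muscle splicing, with earlier results of these data known, and each has 1 row among the 53735 rows of the deposited count table. Aortic RNA of Mymsl KO mice, knockouts for a long noncoding RNA gene, was compared with that of Mymsl WT mice, each genotype being represented by 3 libraries. By the protocols in the labels, medial smooth muscle cells were purified from the aorta before extraction, and a stranded mRNA kit was used. The series text speaks of 3 pairs of mice. The labels give no strain, age, design of the knockout allele or cell type of its loss, and they do not say whether a library is 1 mouse or a pool.

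As background, these families act on muscle exons in different ways. RBPMS is enriched in smooth muscle, binds paired CAC motifs and drives many exons toward the pattern of contractile cells, while PTBP1 represses exons through pyrimidine-rich sites and holds several smooth muscle exons out. MBNL proteins promote mature splicing patterns and CELF proteins often act against them on the same exons, and RBFOX proteins bind GCAUG and include or skip an exon according to the side on which they bind. PTBP2 is best known from neurons, where it replaces PTBP1.

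Counts were summed per gene, so they show how much RNA of a regulator was present and not which exons it carried. This matters for 4 of the genes, in which the level and the splicing of the regulator are known to be linked. PTBP1 represses an exon in its own transcript and the matching exon in that of PTBP2; leaving it out shifts the reading frame and exposes the RNA to nonsense-mediated decay. GENCODE M21 on GRCm38 places this 34-base exon at chr10:79862014-79862047 (plus strand) in Ptbp1 and at chr3:119724612-119724645 (minus strand) in Ptbp2. In each gene 2 annotated transcripts skip it, and both are typed as targets of nonsense-mediated decay. MBNL proteins hold down the inclusion of an exon that helps carry MBNL itself into the nucleus. It has 54 bases, a multiple of 3, and lies at chr3:60614683-60614736 in Mbnl1 and at chr14:120395712-120395765 in Mbnl2, both on the plus strand. It is present in 5 annotated Mbnl1 transcripts and 3 of Mbnl2, and absent from 8 and 3 spliced transcripts that span it. The sequences are shown because reads from transcripts with and without them enter the same gene count; capitals mark bases that differ between the paralogues.
Ptbp1: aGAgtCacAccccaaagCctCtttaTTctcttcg
Ptbp2: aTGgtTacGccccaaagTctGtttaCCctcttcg
Mbnl1: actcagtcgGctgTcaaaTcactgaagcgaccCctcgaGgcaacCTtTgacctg
Mbnl2: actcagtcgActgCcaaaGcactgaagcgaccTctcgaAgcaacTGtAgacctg
The 2 Ptbp exons share 26 of 34 bases (76.5%), and the 2 Mbnl exons share 46 of 54 (85.2%), so 8 bases differ in each pair.

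Total counts lay between 20048216 and 25521123 per library. The unit CPM stands for counts relative to library size, after TMM scaling (trimmed mean of M values), and means stand with the SD over the 3 libraries of a genotype. Values of single libraries are listed in the order of their replicate numbers. No row was named Mymsl. The clone-named row RP23-57D10.3 had 314, 378 and 273 counts in WT and 0 in each KO library, and was the 1 row with that pattern at 10 or more counts per WT library. Smooth muscle markers were high in every library, with a summed level of 8 genes between 50110 and 53478 CPM in WT and between 41423 and 55308 in KO, led by the actin gene Acta2, and 1 of the 8 had a higher mean in KO. The 13 mitochondrially encoded protein genes, of which mt-Atp8, mt-Atp6 and mt-Nd4l had 0 counts in all libraries, held 7.66%, 8.86% and 5.54% of the WT counts and 18.5%, 9.83% and 12.7% of the KO counts. Markers of other cells were present at lower summed levels. Heart muscle markers (10 genes) ran from 78.5 to 111 CPM in WT and from 89.4 to 162 in KO, led by Ryr2, with 8 of 10 means higher in KO. Endothelial markers (10 genes) ran from 423 to 545 and from 478 to 793 CPM, adventitial fibroblast markers (8 genes) from 1016 to 1756 and from 1002 to 2288, macrophage and leukocyte markers (10 genes) from 44.6 to 76 and from 39.6 to 104, nerve and Schwann cell markers (10 genes) from 41.7 to 49 and from 41.6 to 66.5, adipocyte markers (8 genes) from 145 to 272 and from 148 to 323, and skeletal muscle markers (8 genes) from 7.41 to 12.2 and from 7.87 to 11.7. Means were higher in KO for 8 of 10 endothelial, 7 of 8 fibroblast, 9 of 10 macrophage and leukocyte, 7 of 10 nerve, 7 of 8 adipocyte and 4 of 8 skeletal muscle markers. Some of these genes had few counts, such as Cd3e, with 1, 0 and 0 in WT and 0, 0 and 2 in KO. Summed endothelial markers were highest in KO replicate 3 (512, 478 and 793 CPM in KO). So were macrophage and leukocyte (85.5, 39.6 and 104) and adipocyte markers (217, 148 and 323). Among KO libraries, fibroblast and nerve sums were highest in replicate 1, and the skeletal muscle sum in replicate 2. Each of the 8 heart muscle genes with a higher mean in KO was highest in KO replicate 1. Ryr2 was not among them (log2 fold change −0.037). In none of these cell type lists was a gene at 0 in all 6 libraries, and their part in the values below was not tested.

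In GENCODE M21 on GRCm38, Rbpms lies on chromosome 8 from 33782643 to 33929863 and Rbpms2 on chromosome 9 from 65629648 to 65660528. Mbnl1 spans 60472830 to 60629750 on chromosome 3, and Mbnl2 120275669 to 120431697 on chromosome 14. Ptbp1 lies on chromosome 10 from 79854427 to 79864771, and Ptbp2 on chromosome 3 from 119718742 to 119784466. Celf1 (90940382 to 91019497) and Celf2 (6539694 to 7509563) are both on chromosome 2, and Rbfox2 is on chromosome 15 from 77078990 to 77307004.

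All 9 regulators were well expressed. Divided by the length of all annotated exons, the level of Rbpms was the highest, at 86 ± 9.9 CPM per kb in WT and 91.8 ± 6.94 in KO (n = 3 each). Mbnl1 followed at 60 ± 9.13 and 52 ± 3.91 CPM per kb, and then Rbpms2 at 44.7 ± 6.53 and 48.6 ± 4.13. The ranges of Mbnl1 and Rbpms2 over the 6 libraries overlapped, so their order is not settled by these libraries. A middle group held Ptbp1 (35.8 ± 1.46 CPM per kb in WT), Rbfox2 (33.8 ± 3.82) and Mbnl2 (23.2 ± 3.36), where neighbours overlapped as well. Celf1, at 13.4 ± 0.419 CPM per kb in WT, stood apart from both its neighbours. The lowest were Celf2 (6.09 ± 0.269) and Ptbp2 (5.92 ± 0.629), whose ranges overlapped. Long exon models lower such a value: the exons of Celf2 add up to 25.9 kb and those of Mbnl1 to 18.7 kb, against 2.51 kb for Rbpms2. Counting error was small even for the least covered of the 9, since the lowest count in any library was 999 for Ptbp2 (exact Poisson 95% interval 938 to 1063).

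Most paralogues of these genes were all but silent in the aorta. Of 8 further members of these families, 7 were too low to test, with at most 13 counts in a library: the muscleblind gene Mbnl3, the CELF genes Celf3, Celf4, Celf5 and Celf6, the neuron and muscle gene Rbfox1 and the neuronal Rbfox3. Celf3 had 0 counts in all 6 libraries, which allows a level of up to 0.0219 CPM (3 counts over the 6 libraries, counting error only). Ptbp3, another polypyrimidine tract protein known from blood cells, was the exception, at 47.7 ± 3.96 CPM in WT and 43.4 ± 4.36 in KO (log2 fold change −0.137 ± 0.0947, edgeR adjusted p = 0.506). The RBFOX and MBNL message of these libraries was therefore nearly all Rbfox2, Mbnl1 and Mbnl2.

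**Figure D1:**
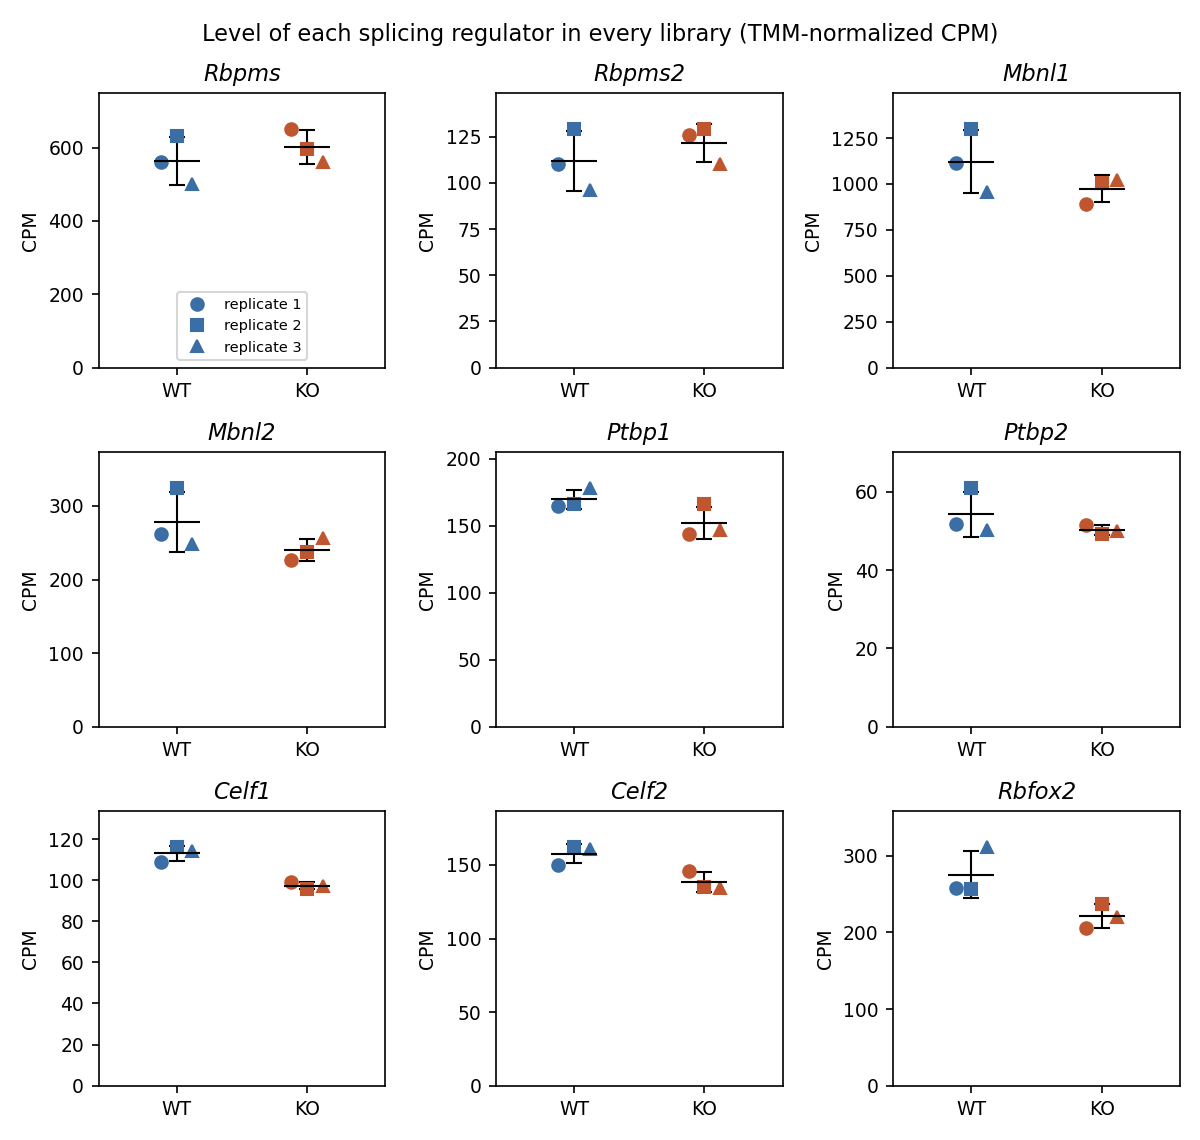
TMM-normalized CPM of the 9 genes in each of the 6 libraries; symbols give the replicate number, bars the mean ± SD of 3 libraries, and each vertical axis starts at 0. Celf1, Celf2 and Rbfox2 have every KO library below every WT library, and the other 6 genes overlap.

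No regulator passed the test between KO and WT. Of the 9, 7 had a lower mean in KO and 2, Rbpms and Rbpms2, a higher mean, and differences of the means ranged from −19.8% for Rbfox2 to 8.83% for Rbpms2. The test was edgeR's quasi-likelihood test on the whole table with Benjamini-Hochberg adjustment, two-sided. It called 0 of the 9 at an adjusted p under 0.05, against 1 of 14145 genes tested (0.00707%), and the smallest adjusted p among the 9 was 0.264. DESeq2 also called 0 of the 9, where it called 2.35% of the 8467 genes to which it gave an adjusted p. At an unadjusted edgeR p under 0.05 there were 3 lower genes and 0 higher, where 7.76% of all tested genes were lower and 6.80% higher by that rule. The median log2 fold change of the 9 was −0.191, and that of all tested genes 0.012, of which 47.5% were below 0. Whether lower values reflect fewer cells of a type or less RNA per cell cannot be told apart in bulk RNA.

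Celf1, Celf2 and Rbfox2 were the 3 genes whose KO libraries all lay below all WT libraries. Over all tested genes this separation held for 11.3% in that direction and 10.5% in the opposite one, and it held for 0 of the 9 in the opposite one.

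**Figure D2:**
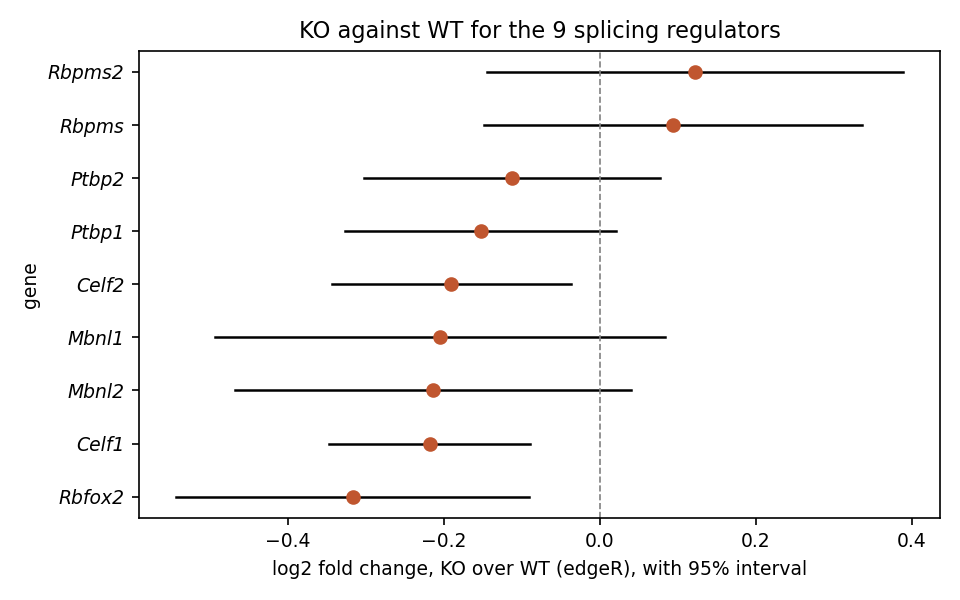
Log2 fold change of KO over WT for the 9 genes (points) with 95% intervals from the edgeR fit, unadjusted for the number of genes. Rbpms2 is at the top with 0.122 and Rbfox2 at the bottom with −0.317; the intervals of Celf1, Celf2 and Rbfox2 lie below 0, and none of the 9 passed after adjustment.

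The CELF proteins, which bind GU-rich sequence in introns and in mature mRNA, both had separate groups, and their KO means differed from the WT means by −14% for Celf1 and −12.4% for Celf2. Celf1, the founding member, measured 109, 116 and 114 CPM in WT and 99, 95.9 and 97 in KO. All 3 KO libraries were low by about the same amount. The log2 fold change was −0.218 ± 0.0551 (SE; 95% interval −0.347 to −0.09), with an edgeR adjusted p of 0.264 and a DESeq2 adjusted p of 0.0746. Celf1 stood at rank 241 of all tested genes by p, the first of the 9. Celf2, its closest expressed relative, measured 150, 162 and 161 CPM in WT and 146, 135 and 134 in KO. Here KO replicate 1 came close to WT replicate 1, and the other KO libraries were lower. Its log2 fold change was −0.191 ± 0.066 (edgeR adjusted p = 0.279, DESeq2 adjusted p = 0.185). Exons of a noncoding gene on the opposite strand, Gm26565, lie over 7.58% of the exon bases of Celf2, and were counted under a strand setting not given in the sources used here.

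Rbfox2, the only well-expressed RBFOX gene in these libraries, had the largest difference of the 9. It measured 258, 257 and 311 CPM in WT and 206, 237 and 220 in KO. WT replicate 3 was the high library, and the gap between the groups lay between 257 and 237 CPM. The log2 fold change was −0.317 ± 0.0975 (95% interval −0.544 to −0.091), with an edgeR adjusted p of 0.277 and a DESeq2 adjusted p of 0.0972. KO replicate 1, the lowest in Rbfox2, was also the library with the highest mitochondrial share, the highest summed heart muscle (162 CPM), fibroblast (2288) and nerve (66.5) markers and the lowest summed smooth muscle markers (41423); the part of these in the result was not tested. Without KO replicate 1 the log2 fold change of Rbfox2 was −0.27, and without WT replicate 3 it was −0.216.

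The muscleblind genes Mbnl1 and Mbnl2, whose sequestration by repeat RNA underlies myotonic dystrophy, had lower means in KO but overlapping libraries. Mbnl1 measured 1112, 1298 and 957 CPM in WT and 890, 1008 and 1023 in KO. WT replicate 3 fell among the KO libraries. The log2 fold change of Mbnl1 was −0.205 ± 0.124 (95% interval −0.493 to 0.083, edgeR adjusted p = 0.452). Mbnl2 measured 262, 324 and 248 CPM in WT and 227, 237 and 256 in KO. Its pattern was that of Mbnl1, with WT replicate 2 high and KO replicate 1 low. The log2 fold change of Mbnl2 was −0.214 ± 0.109 (edgeR adjusted p = 0.391). Without WT replicate 2 these values were −0.088 for Mbnl1 and −0.09 for Mbnl2, and without WT replicate 3 that of Mbnl1 was −0.303.

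The PTB proteins repress exons, and PTBP1 is the form made in most cells outside the nervous system. Ptbp1 measured 165, 166 and 178 CPM in WT and 144, 166 and 147 in KO. KO replicate 2 was level with the WT libraries and the other 2 KO libraries were lower. The log2 fold change was −0.153 ± 0.0749 (95% interval −0.327 to 0.021, edgeR adjusted p = 0.379). Exons of genes on the opposite strand (E130317F20Rik, Gm17134 and Plppr3) cover 20.7% of the exon bases of Ptbp1. The row of Plppr3 had 4 to 10 counts per library, and the rows of the others were not examined. The part of opposite-strand reads in the Ptbp1 counts was not tested. Ptbp2, the neuronal form, measured 51.8, 60.9 and 50.2 CPM in WT and 51.5, 49.1 and 50.1 in KO. Apart from WT replicate 2, all libraries lay between 49.1 and 51.8 CPM. Its log2 fold change was −0.113 ± 0.0816 (edgeR adjusted p = 0.525), and −0.023 without WT replicate 2.

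Rbpms, the regulator most closely tied to the contractile state of smooth muscle, and its paralogue Rbpms2, known from visceral smooth muscle precursors, were the pair with higher means in KO. Rbpms measured 560, 631 and 501 CPM in WT and 650, 595 and 560 in KO. The groups overlapped, with WT replicate 2 above 2 of the KO libraries. The log2 fold change of Rbpms was 0.094 ± 0.104 (95% interval −0.148 to 0.336, edgeR adjusted p = 0.695), so the interval holds both a small loss and a gain. Rbpms2 measured 110, 129 and 96.4 CPM in WT and 126, 129 and 110 in KO. Its log2 fold change was 0.122 ± 0.115 (95% interval −0.145 to 0.389, edgeR adjusted p = 0.636). Both values depended on single libraries: without WT replicate 3 they were 0.02 and 0.03, without WT replicate 2 they were 0.181 and 0.236, and without KO replicate 1 that of Rbpms was 0.034. For Rbpms2 it was 0.078 without KO replicate 2 and 0.19 without KO replicate 3; for Rbpms it was 0.142 without KO replicate 3.

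**Figure D3:**
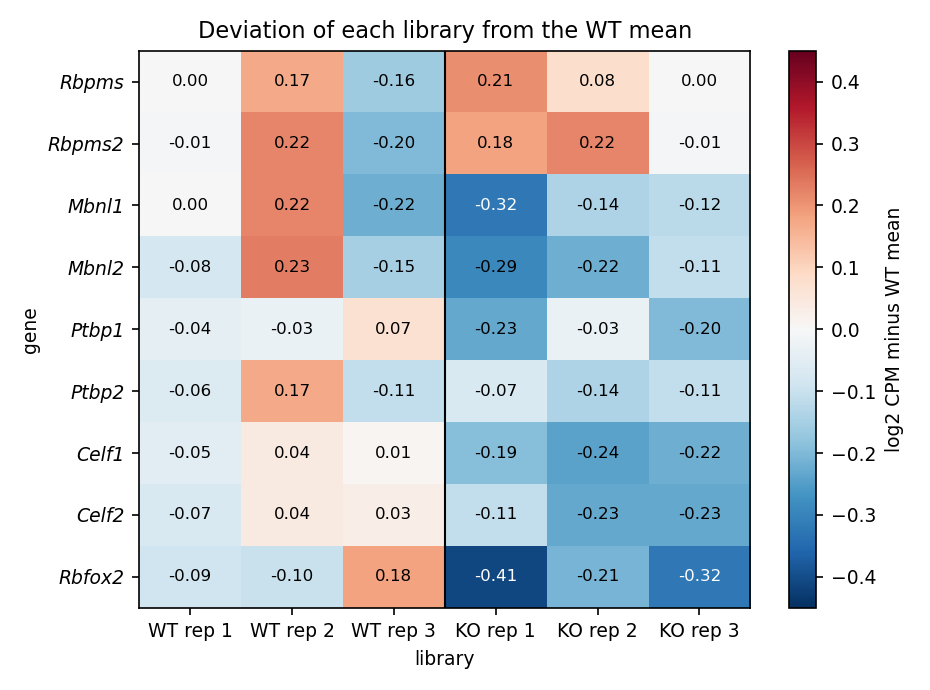
Log2 CPM of each gene (rows) in each library (columns) minus the mean of the WT libraries, with the value printed in each cell and red above, blue below 0. In the KO columns every row except Rbpms and Rbpms2 is below 0 throughout, by up to 0.41 in Rbfox2. Rbpms and Rbpms2 are the only rows with KO values above 0.

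Within the WT group, the 9 genes fell into patterns of their own. Rbpms, Rbpms2, Mbnl1, Mbnl2 and Ptbp2 were each highest in WT replicate 2 (0.17 to 0.23 above the WT mean on the log2 scale) and lowest in WT replicate 3 (from −0.22 to −0.11). Rbfox2 went the other way, at 0.18 in WT replicate 3 and −0.10 in WT replicate 2. Celf1, Celf2 and Ptbp1 varied least, by at most 0.07 on either side of the WT mean. The mitochondrial share was likewise highest in WT replicate 2 and lowest in WT replicate 3. Summed smooth muscle markers (50110, 53478 and 52704 CPM) were lowest in WT replicate 1 and highest in WT replicate 2. Adventitial fibroblast (1756, 1016 and 1693 CPM), heart muscle (110, 78.5 and 111) and macrophage and leukocyte markers (76, 44.6 and 68) were lowest in WT replicate 2. In the heart muscle list this low came from Ryr2 (87.5, 54.4 and 93.1 CPM), with Actc1 in between and Nppa at 0 in WT. The other genes of that list, Myh6, Myl7, Tnnt2, Tnni3, Myl4, Myl2 and Sln, were highest in WT replicate 2. Skeletal muscle (9.09, 12.2 and 7.41) and nerve markers (44.2, 49 and 41.7) were highest there, and endothelial (545, 450 and 423) and adipocyte markers (272, 213 and 145) were in between. The part of these in the patterns was not tested. The coefficient of variation in WT was 15.2% for Mbnl1, 11.5% for Rbpms and 11.3% for Rbfox2, against 3.13% for Celf1.

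Splicing outcome is thought to follow the balance between regulators, so ratios of 2 genes were taken within each library, where scaling cancels. Exon length does not cancel, so these count ratios compare libraries and do not give the relative level of 2 genes. The Rbpms2 to Rbpms count ratio was 0.197, 0.205 and 0.193 in WT and 0.194, 0.218 and 0.196 in KO. The Mbnl2 to Mbnl1 ratio was 0.236, 0.25 and 0.26 in WT and 0.255, 0.235 and 0.25 in KO. Within both families the paralogues thus kept nearly the same proportion in the 6 libraries, although the levels themselves varied. The Celf2 to Celf1 ratio was 1.37, 1.4 and 1.41 in WT and 1.47, 1.4 and 1.38 in KO. Per kb of exon the order was the reverse, with Celf2 at 6.09 and Celf1 at 13.4 CPM per kb in WT.

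The Ptbp2 to Ptbp1 ratio, which rises when neural splicing is switched on, was 0.314, 0.366 and 0.282 in WT and 0.357, 0.295 and 0.34 in KO. The ratio of Rbpms, an activator of the contractile pattern, to Ptbp1, its repressor, was 3.39, 3.79 and 2.82 in WT and 4.5, 3.58 and 3.8 in KO. This was the largest shift of the 6 ratios, 0.252 on the log2 scale, from 1.73 ± 0.216 to 1.98 ± 0.172, and the groups overlapped (exact two-sided permutation p = 0.2, Benjamini-Hochberg adjusted over 6 ratios 0.8). Without WT replicate 3 it was 0.137, and without KO replicate 1 it was 0.156. The Mbnl1 to Celf1 ratio was 10.2, 11.2 and 8.39 in WT and 8.99, 10.5 and 10.5 in KO. Differences of the other 5 log2 ratios lay between −0.009 and 0.047, with exact permutation p between 0.5 and 0.8. With 3 libraries against 3, this test allows no p under 0.1.

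**Figure D4:**
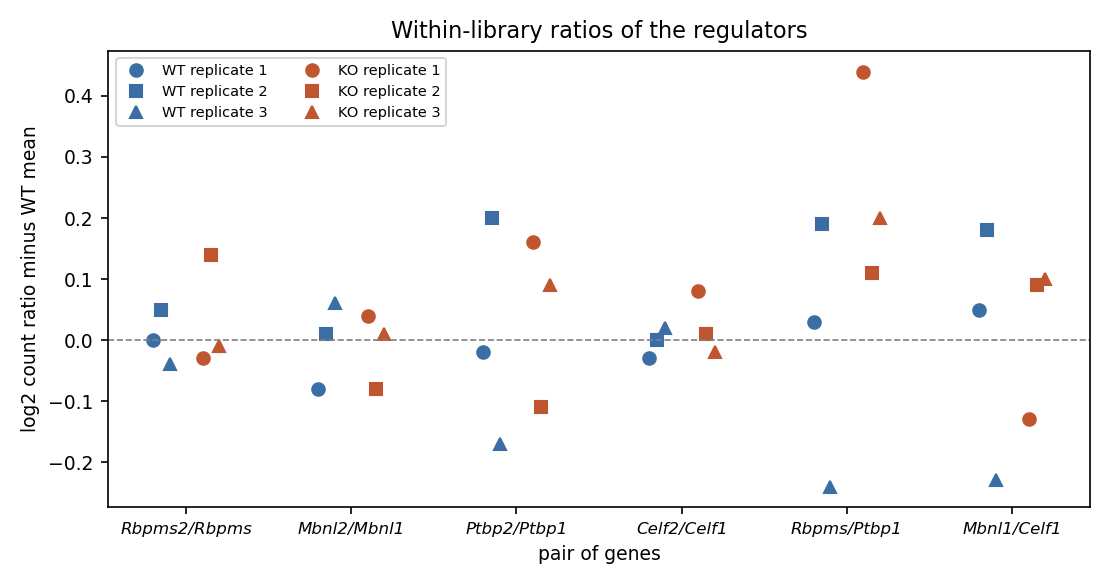
Log2 ratio of the counts of 2 genes within a library, minus the WT mean of that ratio, for 6 pairs; blue is WT, orange KO, and symbols give the replicate number. WT and KO libraries overlap in all 6 pairs, and Rbpms/Ptbp1 has the largest spread, from WT replicate 3 at the bottom to KO replicate 1 at the top.

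Genes whose profile over the 6 libraries was most like that of a regulator were sought by the root mean square difference in log2 CPM, each gene centred on its WT mean. For Celf1 these were Kif5b, a kinesin heavy chain (0.018), Ibtk (0.026) and Nufip2 (0.026), and 1142 genes lay within 0.1. Kif5b measured 227, 233 and 236 CPM in WT and 202, 194 and 197 in KO. For Rbpms they included Exosc1, a subunit of the RNA exosome (0.031), and Fam175a (0.033), with 731 genes within 0.1. Neither profile was therefore rare in these libraries.

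Other splicing factors were described from lists of genes by role. SR and related proteins, which mostly promote exon inclusion, had values above 0 for all 14 tested members, between 0.036 and 0.323. Their median log2 fold change was 0.121, and edgeR called 0 of the 14. At an unadjusted p under 0.05, 3 were higher and 0 lower, where 6.80% of all tested genes were higher and 7.76% lower. In 3, every KO library lay above every WT library, which held for 10.5% of all tested genes. Tra2a, a sequence-specific activator, measured 55, 63.6 and 59.5 CPM in WT and 77.3, 70.1 and 75.4 in KO. Its log2 fold change was 0.323 ± 0.072 (edgeR adjusted p = 0.254), and it rose in DESeq2 (adjusted p = 0.0487), the only SR gene of the 14 called there. Over all genes, DESeq2 called 2.35% of the 8467 given an adjusted p. Srsf7 (0.231 ± 0.0717), Srsf6 (0.241 ± 0.0821) and Srsf11 (0.21 ± 0.092) came next by p and did not pass in either tool.

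The hnRNP proteins, to which the PTB proteins belong and which often silence exons, had 14 of 21 tested members below 0. Their median log2 fold change was −0.047, and edgeR and DESeq2 called 0 of them. Over all genes, edgeR called 0.00707% of those tested and DESeq2 2.35% of the 8467 given an adjusted p. At an unadjusted edgeR p under 0.05, 2 were lower and 0 higher, where 7.76% of all tested genes were lower and 6.80% higher. In 6, every KO library lay below every WT library, which held for 11.3% of all tested genes. Hnrnpk measured 394, 411 and 403 CPM in WT and 339, 368 and 344 in KO (log2 fold change −0.201 ± 0.066, edgeR adjusted p = 0.279). Syncrip (−0.201 ± 0.0752), Hnrnpa3 (−0.134 ± 0.0576) and Hnrnpr (−0.105 ± 0.0514) followed.

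Among 33 partners of the 9 and other tissue regulators, 26 were tested, 19 of them above 0, with a median of 0.147 and 0 called by edgeR (2 lower and 4 higher at an unadjusted p under 0.05). By that unadjusted rule, 7.76% of all tested genes were lower and 6.80% higher. Rbm5, a regulator of apoptosis gene splicing, measured 112, 129 and 115 CPM in WT and 147, 151 and 145 in KO (log2 fold change 0.312 ± 0.0703, edgeR adjusted p = 0.254) and passed as higher in DESeq2 (adjusted p = 0.0306). The RNA helicase Ddx17, a splicing cofactor, measured 390, 396 and 388 CPM in WT and 465, 465 and 440 in KO (0.223 ± 0.0634, edgeR adjusted p = 0.269) and also passed there (adjusted p = 0.0493). DESeq2 gave an adjusted p to 17 genes of this list and called these 2, against 2.35% of 8467 over all genes. Rbm39 had 0.235 ± 0.0765, and the neural factor Srrm4 had −1.205 ± 0.358 at 1.47 ± 0.466 CPM in WT and 0.636 ± 0.169 in KO. The quaking gene Qk, which acts on smooth muscle splicing too, had −0.129 ± 0.0668 (adjusted p = 0.396), and the PTB partner Matr3 −0.092 ± 0.0759 (adjusted p = 0.581), both in edgeR. Raver1, a corepressor of PTBP1, is listed at 0 in all libraries; the exons of Gm38431 and a microRNA gene on the same strand cover 99.7% of its exon bases in GENCODE M21, and to which gene such reads were assigned was not tested. No exon base of the 9 regulators is covered by an exon of another gene on the same strand in GENCODE M21.

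**Figure D5:**
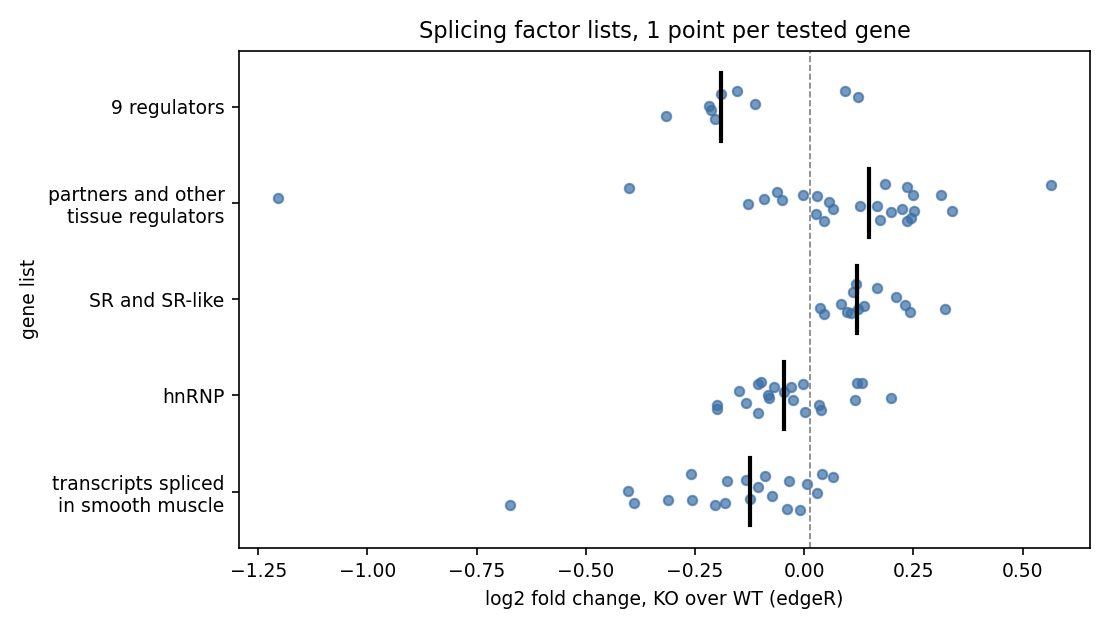
Log2 fold change of KO over WT for every tested gene of 5 lists (1 point per gene, jittered vertically); black bars give list medians and the dashed line the median of all tested genes, 0.012. The 9 regulators have a median of −0.191, and all 14 SR and related genes lie above 0.

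The transcripts on which these regulators are known to act were compared last, as whole-gene levels. Of 21 such genes, all tested, 17 were below 0, with a median log2 fold change of −0.124, 0 called by edgeR (7 lower and 0 higher at an unadjusted p under 0.05) and 8 with every KO library below every WT library. Over all tested genes, 7.76% were lower and 6.80% higher at that unadjusted p. Every KO library lay below every WT library for 11.3% of all tested genes. Vcl, whose muscle exon makes metavinculin, measured 1114, 1181 and 1176 CPM in WT and 808, 988 and 853 in KO (−0.39 ± 0.0952, edgeR adjusted p = 0.263). In DESeq2 Vcl fell (adjusted p = 0.0102), as did Fn1, encoding fibronectin (adjusted p = 0.0322), and the caldesmon gene Cald1 (adjusted p = 0.0291), which was named after its value was seen. These 3 were the only ones of the 21 called by DESeq2, which called 2.35% of the 8467 genes given an adjusted p. Fn1 measured 4727, 4751 and 4846 CPM in WT and 2005, 3065 and 3912 in KO, so its KO libraries ranged widely, with KO replicate 1 the lowest.

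Among classic RBPMS and PTBP1 targets, Tpm1, encoding a tropomyosin with mutually exclusive muscle exons, had −0.073 ± 0.0988 (edgeR adjusted p = 0.749) and Actn1, encoding alpha-actinin, −0.182 ± 0.0936 (0.394). Mprip, a myosin phosphatase partner, had −0.134 ± 0.0923 (0.504), and the coactivator Myocd −0.403 ± 0.152 (0.303). Mef2a, a transcription factor gene with a muscle-specific exon, had −0.258 ± 0.0786 (0.277) and was among the 4 with the smallest p. Which exons these transcripts carried was not analysed here.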

How the data were processed

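The authors deposited unnormalized gene counts, all whole numbers. The submitters' processing notes name GRCm38, Trimmomatic 0.36, STAR 2.6.0c, Subread 1.6.1 and its featureCounts. Annotation release, strand setting and the handling of multi-mapped reads were not given in the sources used here.

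Columns were matched to libraries by the names in the labels. Low rows were dropped by filterByExpr (at a minimum count of 10 and total of 15), and the rest were scaled by TMM and tested with edgeR 4.0.16 (R 4.3.3), with genotype as the only term. Log2 CPM used a prior count of 2, and count ratios a pseudocount of 0.5. Ratios were tested with scipy 1.17.1. The edgeR steps were also run on simulated data, as a check of the code. No power to find changes as small as those of the regulators was taken from that run. Alternatives were DESeq2 1.42.0 (its test and its size factors), limma 3.58.1 (voom), no filter, a mean count of at least 50, normalization without mitochondrial genes, a replicate block, a ratio pseudocount of 5, and each library left out in turn. P-values of edgeR, DESeq2 and limma weigh the difference between genotypes against the spread between libraries, which may be in part technical. Intervals of counts cover counting error only.

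Gene models and exon sequences came from GENCODE M21, in which all 9 symbols matched. The regulators and lists were chosen with earlier results of these data known. Named were all 9, their paralogues, the 4 genes with the smallest p per splicing list and some fixed partners and targets, and the 3 most similar profiles for Rbpms and for the regulator with the smallest p. Some genes that this rule took are not reported here.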

Additional observations from a re-analysis of the deposited data

How the results depend on the processing

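Under 13 alternatives each, all 9 log2 fold changes kept their sign and none passed, so 117 of 117 values had the direction and call of the main result; the smallest adjusted p was 0.0746 (Celf1 in the DESeq2 test). Calls over all genes, 1 lower and 0 higher, were 139 lower and 60 higher in the DESeq2 test and 4 lower and 5 higher with no filter; leaving out single libraries gave 0 to 1 lower (0 without WT replicate 1) and 0 to 2 higher (2 without KO replicate 2). The cause was not tested. With the replicate number as a replicate block there were 0 lower, and no call among the 9 changed. Same-numbered libraries deviated with correlations of 0.107, 0.134 and −0.056, and not every library correlated best with its own number. Such correlations, from 3 libraries a group, cannot show whether the numbers mark the pairs of mice. The main test did not take the numbers as pairs, and the replicate block is the fit that does. Leaving out single libraries, log2 ratio differences ran from −0.021 to 0.062 for Rbpms2/Rbpms, from −0.047 to 0.024 for Mbnl2/Mbnl1, from −0.041 to 0.146 for Ptbp2/Ptbp1 and from −0.094 to 0.113 for Mbnl1/Celf1, so these 4 have no settled direction. Those of Rbpms/Ptbp1 stayed between 0.137 and 0.35, and those of Celf2/Celf1 between 0.001 and 0.047. A kept sign does not settle the direction of these either, as the groups overlapped in both (exact permutation p = 0.2 and 0.5). With 3 libraries a group, the spread between libraries rests on few values.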
